A study of Mus musculus with 6 samples.

Results

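The genes described here encode the route from glucose uptake to lactate export: the glucose transporter Slc2a1, the hexokinases Hk2 and Hk3, the phosphofructokinase Pfkl and its activator-producing enzyme Pfkfb3, the enzymes Aldoa, Pgk1, Pkm and Ldha, and the lactate transporter Slc16a3. They were chosen by gene name, 10 of 23284 names listed per library, and all 10 were found. Pkm is listed under its older name Pkm2, so its values cover the whole gene and not the M2 splice form alone. RNA was sequenced from EGFP-positive cells sorted from the calvaria of CX3CR1-EGFP mice, in which the fractalkine receptor gene drives a green reporter in monocytes and related myeloid cells. The treated mice received lipopolysaccharide (LPS) at the calvarial periosteum with 10 mg/kg CTLA4-Ig (abatacept, a fusion protein that binds CD80 and CD86), and the control mice received LPS with 10 mg/kg whole human IgG. Cells were taken on day 5, with 3 libraries per group. Both groups carried the reporter and received LPS, so neither is untreated, and the labels give no age, sex or background strain, nor the animals behind each library, which the titles number as biological replicates. The p-values below therefore measure the spread between these libraries.

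Glycolysis splits glucose into pyruvate in the cytosol and yields ATP without oxygen. Lactate dehydrogenase then turns pyruvate into lactate, which restores the NAD+ that the upper steps need, and monocarboxylate transporters carry the lactate out together with a proton. Neutrophils hold few mitochondria and depend on this route, and macrophages exposed to LPS raise it, partly through the transcription factor HIF-1. Most steps have several isozymes encoded by separate genes, whose use differs between cell types.

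The libraries were of similar depth: estimated from the spacing of low values, the CTLA4-Ig libraries held 9320000 to 11400000 fragments and the control libraries 9260000 to 10300000. Myeloid markers matched the sort, with Csf1r, the M-CSF receptor gene, at 140.4 to 171 FPKM (fragments scaled for transcript length and library size) with CTLA4-Ig and 142 to 193 FPKM with control IgG. The 12 monocyte and macrophage markers summed to 2810 to 3045 FPKM in the drug group, around the 2947 to 3009 FPKM of the controls. Of defining osteoclast genes, the calcitonin receptor gene Calcr was above 0 in 1 library, and the protease gene Ctsk ran from 1.41 to 4.17 FPKM in the drug group and from 2.05 to 4.98 FPKM in the controls. Acp5, the phosphatase TRAP, was higher than these, at 15.7 to 24.9 FPKM in the drug group and 18.1 to 27.01 FPKM in the controls. Neutrophil markers were abundant, with a higher sum in each library of the drug group: the 18 measured markers summed to 175900 to 242500 FPKM with CTLA4-Ig and 136700 to 155800 FPKM with control IgG. S100a8 and S100a9 made up 74.9 to 78.3% of that sum, and the other 16 markers summed to 44216 to 56216 FPKM with CTLA4-Ig and to 30579 to 36781 FPKM with control IgG. Erythroid markers summed to 83.2 to 125 FPKM in the drug group and to 8.80, 147 and 126 FPKM in control libraries 1, 2 and 3, so control library 1 stood apart. In sorted bulk RNA a change in the share of a cell type and a change of RNA per cell cannot be told apart.

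Pkm, Aldoa, Ldha and Pgk1 were the 4 most abundant members. Levels are FPKM, which is per transcript length, so genes can be compared. Pkm, the pyruvate kinase that makes pyruvate and ATP, was highest, at 673, 685 and 681 FPKM in CTLA4-Ig libraries 1, 2 and 3 and at 751, 603 and 641 FPKM in the control libraries. Aldoa, the aldolase that cleaves the 6-carbon sugar, followed at 499, 478 and 492 FPKM with CTLA4-Ig and at 521, 429.8 and 453 FPKM with control IgG. For both genes the values of the drug group lay inside the range of the controls. Ldha, the lactate dehydrogenase subunit that favours lactate, stood at 318, 345 and 321 FPKM with CTLA4-Ig and at 344, 316 and 301 FPKM with control IgG. Pgk1, the kinase of the first ATP-yielding step, stood at 303, 325 and 303 FPKM with CTLA4-Ig and at 332, 295 and 289.5 FPKM with control IgG. Groups overlapped for both. Ldha and Pgk1 were neighbours in the order with overlapping ranges over the libraries, although Ldha was above Pgk1 in 6 of 6 libraries.

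Below them came Hk3, a hexokinase of blood cells, at a mean of 129.8 FPKM over the 6 libraries, and Slc16a3, the transporter MCT4 that exports lactate, at 42.4 FPKM. The 4 least abundant members were Hk2, the inducible hexokinase (23.7 FPKM), Pfkfb3, which makes the phosphofructokinase activator fructose-2,6-bisphosphate (20.7 FPKM), Pfkl, the liver-type phosphofructokinase (19.6 FPKM), and Slc2a1, the transporter GLUT1 (14.1 FPKM). The ranges of Hk2 and Pfkfb3, of Pfkfb3 and Pfkl, and of Pfkl and Slc2a1 overlapped. Hk2 was above Pfkfb3 in 5 of 6 libraries, Pfkfb3 above Pfkl in 5 of 6 and Pfkl above Slc2a1 in 6 of 6. From Pkm to Slc2a1 the mean level differed 47.8-fold. Levels did not simply follow the order of the steps: Hk3, at the entry, was above Slc16a3, at the exit, and the upper-step isomerase Gpi1, which is no member, averaged 395 FPKM. At these depths the weakest member in the weakest library rested on about 331 fragments, a counting error of 5.5%, and Pkm on at least 12700 fragments.

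**Figure D1:**
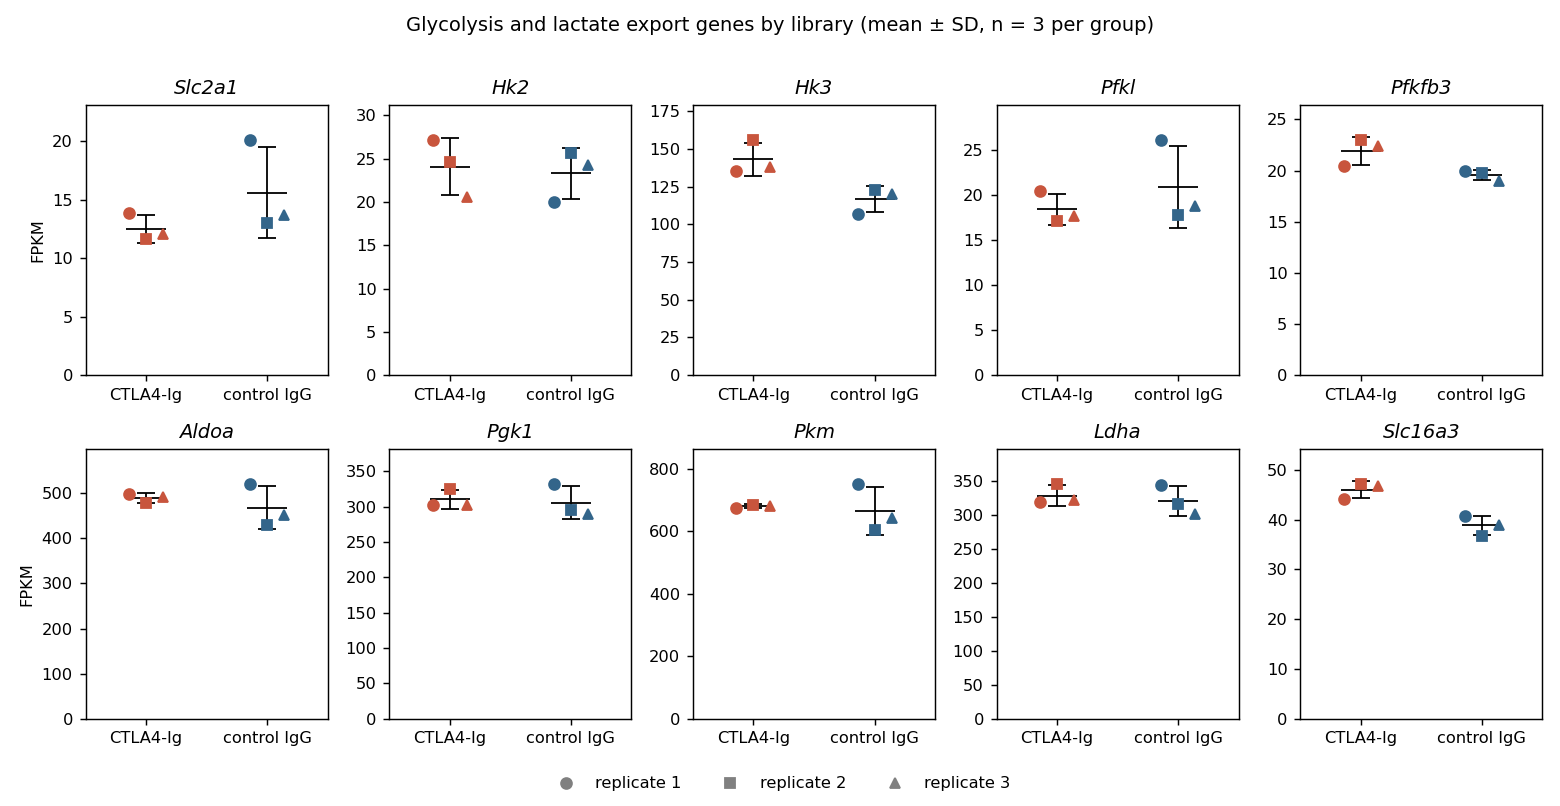
FPKM of each gene in every library, CTLA4-Ig (red) and control IgG (blue); marker shapes give the replicate number, and the bar and whiskers are the mean ± SD (n = 3 per group). Hk3, Pfkfb3 and Slc16a3 are the genes whose groups do not overlap, and control library 1 holds the highest Slc2a1 (20.1 FPKM) and Pfkl (26.1 FPKM).

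HIF-1 binds a short core sequence at many glycolytic genes, so the windows around annotated transcription starts of 4 members are printed: Slc16a3 and Hk3, which had the lowest unadjusted p among the members, and the abundant Ldha and Pgk1, which are long-known HIF-1 targets. Each runs 5′ to 3′ along the gene, from 250 bases before to 50 bases after a start, in RefSeq's GRCm38.p6 table. Capitals mark ACGTG or GCGTG on either strand (CACGT and CACGC on the printed strand), and CACGTG holds ACGTG on both strands and counts 2 times. The windows are chr11:120948817-120949116 (plus strand) for Slc16a3, chr13:55021336-55021635 (minus strand) for Hk3, chr7:46845554-46845853 (plus strand) for Ldha and chrX:106186850-106187149 (plus strand) for Pgk1.
Slc16a3: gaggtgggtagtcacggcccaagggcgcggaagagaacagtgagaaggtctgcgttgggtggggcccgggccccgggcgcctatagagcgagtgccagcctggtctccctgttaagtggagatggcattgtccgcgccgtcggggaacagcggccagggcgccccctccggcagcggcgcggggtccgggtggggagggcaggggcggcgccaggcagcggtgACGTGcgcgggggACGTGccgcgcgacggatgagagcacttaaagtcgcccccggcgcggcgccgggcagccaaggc
Hk3: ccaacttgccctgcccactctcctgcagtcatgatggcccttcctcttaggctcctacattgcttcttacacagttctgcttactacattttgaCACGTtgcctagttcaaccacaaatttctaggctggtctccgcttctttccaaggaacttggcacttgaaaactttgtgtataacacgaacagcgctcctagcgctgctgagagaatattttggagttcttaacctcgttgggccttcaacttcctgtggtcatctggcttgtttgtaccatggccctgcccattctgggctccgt
Ldha: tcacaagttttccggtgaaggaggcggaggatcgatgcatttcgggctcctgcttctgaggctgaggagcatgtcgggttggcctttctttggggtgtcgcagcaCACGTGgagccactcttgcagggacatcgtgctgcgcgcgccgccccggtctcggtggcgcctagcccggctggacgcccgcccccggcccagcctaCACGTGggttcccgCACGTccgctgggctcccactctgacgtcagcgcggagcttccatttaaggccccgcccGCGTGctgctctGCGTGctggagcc
Pgk1: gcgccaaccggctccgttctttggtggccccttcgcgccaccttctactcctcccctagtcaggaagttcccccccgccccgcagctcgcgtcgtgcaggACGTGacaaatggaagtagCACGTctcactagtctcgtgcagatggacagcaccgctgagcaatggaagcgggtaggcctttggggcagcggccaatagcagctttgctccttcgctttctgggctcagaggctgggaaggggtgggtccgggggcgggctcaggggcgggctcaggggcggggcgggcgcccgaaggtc
The Ldha window holds 7 matches, among them 2 copies of CACGTG, which is also the E-box read by MYC. The windows of Slc16a3 and Pgk1 hold 2 matches each and that of Hk3 holds 1. Over all 15 windows of the 10 members, which overlap in part for Aldoa, 13 hold at least 1 match. Each member has a match in at least 1 window, but no background per gene is given for that. Among all 32851 promoter windows of the table, 43.8% hold one. The sequence GAGGAA, a core read by ETS factors such as PU.1, is in 3 of the 15 windows, Hk3 included, and in 28.3% of all windows. A match is a string of letters, and no binding was measured here.

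The design sets the drug group against the IgG group and asks how gene expression differs. None of the 10 members passed the test: limma called 0 of 10 at a Benjamini-Hochberg adjusted p under 0.05, with 0% of 10865 tested genes called. At an unadjusted p under 0.05 there were 3 members, where 6.07% of all genes had such a p, and 8 of 10 members had a positive log2 fold change, against 47.7% of all genes. The median log2 fold change of the members was 0.04, and that of all genes -0.01. Fold changes are CTLA4-Ig minus control IgG on the log2(FPKM + 1) scale.

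In 3 members, Hk3, Slc16a3 and Pfkfb3, all libraries of the drug group lay above all controls. The groups did not overlap in 12.2% of all genes tested, and 6.5% did so with the drug group on the higher side. Hk3 (chromosome 13, 55005985 to 55021475, GRCm38), which phosphorylates glucose on entry, stood at 135, 156 and 138 FPKM with CTLA4-Ig and at 107, 123 and 120.0 FPKM with control IgG. It averaged 143 ± 11.1 FPKM in the drug group and 117 ± 8.67 FPKM in the controls (SD, n = 3), and its log2 fold change was 0.29 ± 0.08 (SE; limma adjusted p = 0.7196, unadjusted p = 0.00972). Slc16a3 (chromosome 11, 120948484 to 120959000), at the other end of the route, stood at 44.1, 47.2 and 46.8 FPKM with CTLA4-Ig and at 40.8, 36.8 and 38.9 FPKM with control IgG. The lowest CTLA4-Ig library was above the highest control library, and the log2 fold change was 0.24 ± 0.06 (SE; limma adjusted p = 0.7196, unadjusted p = 0.00616). Slc16a3 overlaps Csnk1d, a kinase gene at a mean of 41.8 FPKM with a log2 fold change of 0.01, and the use of strand in counting is not given in the sources used here, so reads could be shared between them. Pfkfb3 (chromosome 2, 11471430 to 11554071) stood at 20.4, 22.9 and 22.4 FPKM with CTLA4-Ig and at 19.9, 19.7 and 19.0 FPKM with control IgG. The gap between the nearest libraries was small, and the log2 fold change was 0.16 ± 0.07 (SE; limma adjusted p = 0.8173). For these 3 genes, leaving out any 1 library kept the log2 fold change between 0.23 and 0.33 (Hk3), between 0.20 and 0.28 (Slc16a3) and between 0.12 and 0.20 (Pfkfb3). Of the 18 neutrophil markers, 10 were higher in all 3 drug libraries than in all controls and 8 overlapped, with 0 called by limma and a median log2 fold change of 0.53. The 4 primary granule genes of that list had values just below 0, among them Prtn3 at -0.12 ± 0.17 and Ctsg at -0.13 ± 0.17 (SE). The part of these markers in the values of Hk3, Slc16a3 and Pfkfb3 was not tested.

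The entry transporter and the committed step had negative mean differences, with control library 1 the highest of the 6 for both. Slc2a1 (chromosome 4, 119108745 to 119137330) stood at 13.9, 11.6 and 12.05 FPKM with CTLA4-Ig and at 20.1, 13.04 and 13.7 FPKM with control IgG. The groups overlapped, with the first control library at 1.5 times the mean of the other two. The log2 fold change was -0.28 ± 0.16 (SE; limma adjusted p = 0.8767), and -0.09 without control library 1. Pfkl (chromosome 10, 77986947 to 78009807) showed the same library pattern, at 20.4, 17.1 and 17.7 FPKM with CTLA4-Ig and at 26.1, 17.7 and 18.8 FPKM with control IgG. Its log2 fold change was -0.16 ± 0.15 (SE; limma adjusted p = 0.9114), and it turned to 0.01 without control library 1 and was -0.26 without control library 2. Hk2 (chromosome 6, 82725025 to 82774454) went against them in that library: it stood at 27.1, 24.6 and 20.6 FPKM with CTLA4-Ig and at 20.0, 25.7 and 24.2 FPKM with control IgG. Its log2 fold change of 0.04 ± 0.13 (SE; limma adjusted p = 0.9775) turned to -0.06 without control library 1 and to -0.04 without CTLA4-Ig library 1.

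The 4 most abundant members had log2 fold changes of at most 0.07 over all 6 libraries. The log2 fold change was 0.07 ± 0.08 for Aldoa (chromosome 7, 126795234 to 126800994), 0.02 ± 0.07 for Pgk1 (chromosome X, 106187100 to 106203699), 0.04 ± 0.09 for Pkm (chromosome 9, 59656576 to 59679372) and 0.04 ± 0.07 for Ldha (chromosome 7, 46842274 to 46855627), with SE, and limma adjusted p from 0.9278 to 0.9775. Pkm averaged 679.8 ± 5.80 FPKM in the drug group and 665 ± 76.8 FPKM in the controls (SD, n = 3), so the controls spread far more than the drug group. Without control library 1 the log2 fold change was 0.15 for Aldoa, 0.13 for Pkm, 0.09 for Ldha and 0.09 for Pgk1, and for Aldoa it was 0.01 without control library 2. The sign turned for Pkm without control library 2 (-0.03), for Pgk1 without CTLA4-Ig library 2 (-0.01) or control library 2 (-5.19e-04) or 3 (-0.01), and for Ldha without CTLA4-Ig library 2 (-5.8e-04) or control library 3 (-0.01). These 4 genes have processed pseudogene copies in the mouse genome, so reads may have been divided between them and their copies, which leaves their values uncertain.

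**Figure D2:**
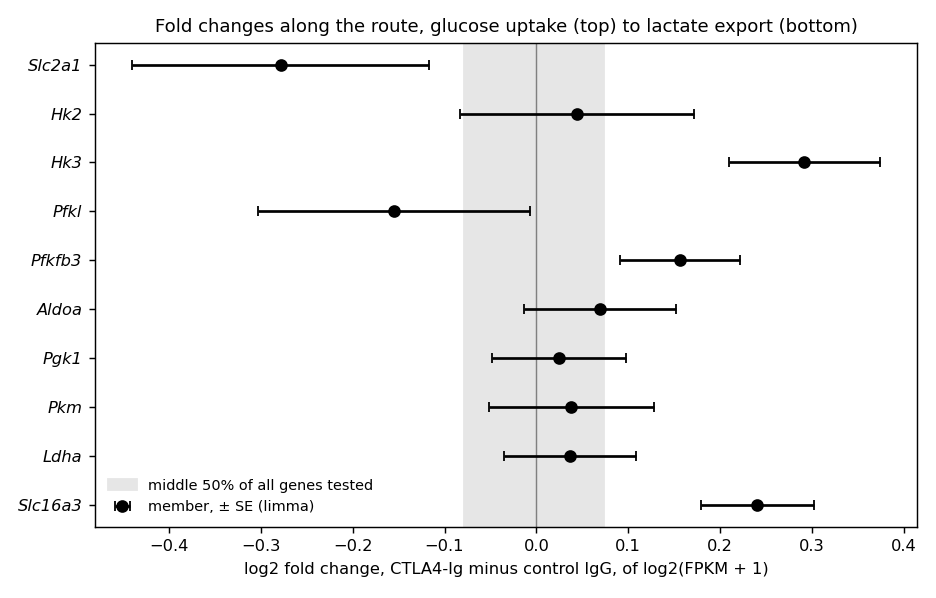
Log2 fold change of each gene, CTLA4-Ig minus control IgG, with its SE from limma (horizontal axis), ordered from glucose uptake to lactate export; the grey band runs from the lower to the upper quartile of all genes tested, -0.08 to 0.07. Hk3, Slc16a3 and Pfkfb3 lie above the band, and Slc2a1 and Pfkl lie below it with wider errors.

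Control library 1 held the highest value of 5 of the 10 members (Slc2a1, Pfkl, Aldoa, Pgk1 and Pkm) and the lowest of Hk2 and Hk3, while control libraries 2 and 3 held the lowest of 3 members each. Without it, 7 of 10 members did not overlap between the groups, all of them higher with CTLA4-Ig: Hk3, Pfkfb3, Aldoa, Pgk1, Pkm, Ldha and Slc16a3. With 2 controls against 3 drug libraries, 26.2% of all genes did not overlap in either direction, and the share on the higher side was not computed. Control library 1 was picked out from these same values. It was the highest control for Aldoa, Pgk1, Pkm and Ldha, which overlapped over all 6 libraries. The count of 7 is therefore a description and no separate evidence of a difference. Without CTLA4-Ig library 1 the count was 5 members, 3 higher with CTLA4-Ig (Hk3, Pfkfb3 and Slc16a3) and 2 lower (Slc2a1 and Pfkl), where 23.1% of all genes did not overlap. With any 1 of the 6 libraries left out, limma called 0 members. The erythroid sum of 8.80 FPKM marks the same control library, and its part in the members' values was not tested.

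**Figure D3:**
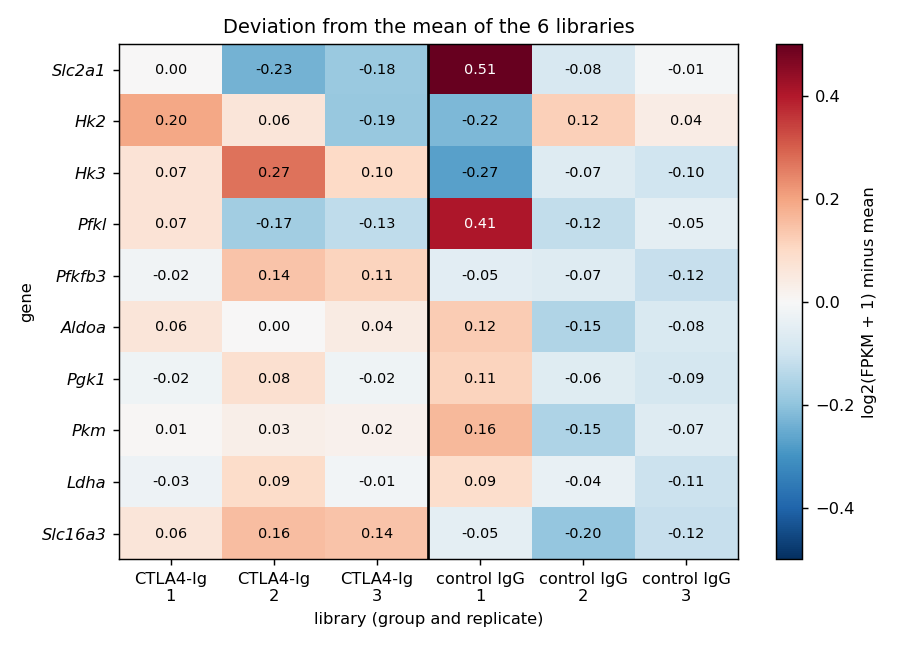
Log2(FPKM + 1) of each gene (rows) in each library (columns), minus the gene's mean over the 6 libraries; red is above and blue below the mean. Control library 1 is highest for Slc2a1 (0.51) and Pfkl (0.41), and lowest for Hk3 (-0.27).

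As shares of their isozymes, 4 of 8 members compared did not overlap between the groups, and none passed a test. Each share is the FPKM of 1 gene over the FPKM sum of a chosen set of its isozymes. With 3 against 3 libraries, a two-sided exact permutation p cannot fall below 0.1. Adjusted over the 8 shares, the p of these 4 was 0.2 each. The 12.2% given above is for levels of single genes, and no such background was computed for shares. Each of these 4 sums holds at least 1 gene whose levels did not overlap, so the shares are not separate from those levels. Hk2 and Hk3 are parts of the same sum. Slc2a1 made up 28.1, 21.0 and 23.9% of the sum of Slc2a1 and Slc2a3 with CTLA4-Ig, against 38.9, 33.4 and 38.3% with control IgG. The difference was -12.5 percentage points (exact permutation p = 0.1), and Slc2a3, the high-affinity transporter GLUT3, was the more abundant of the pair in every library. Slc2a3 stood at 35.4, 43.7 and 38.4 FPKM with CTLA4-Ig and at 31.6, 26.01 and 22.1 FPKM with control IgG, without overlap, a log2 fold change of 0.55 ± 0.14 (SE; limma adjusted p = 0.7196). The share did not rest on control library 1: leaving out any 1 library gave differences of -14.4 to -10.9 percentage points. Slc2a6, more abundant than Slc2a1 at a mean of 22.9 FPKM over the 6 libraries, was outside this sum. So were the less abundant Slc2a8 and Slc2a9, and the size of the difference depends on the genes summed.

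Slc16a3 made up 76.6, 81.0 and 79.1% of the sum of Slc16a1, Slc16a3 and Slc16a7 with CTLA4-Ig, against 75.3, 71.7 and 72.3% with control IgG, a difference of 5.79 percentage points (exact permutation p = 0.1). Slc16a1, the more widely used transporter MCT1, stood at 6.77, 6.18 and 6.92 FPKM with CTLA4-Ig and at 8.84, 8.50 and 7.48 FPKM with control IgG. Its groups did not overlap either, in the opposite direction to Slc16a3, with a log2 fold change of -0.28 ± 0.09 (SE; limma adjusted p = 0.7196). Bsg, the chaperone that both transporters need at the membrane, had a log2 fold change of -0.01 ± 0.06.

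Hk3 made up 68.8, 72.0 and 70.8% of the sum of Hk1, Hk2 and Hk3 with CTLA4-Ig, against 67.4, 67.5 and 67.6% with control IgG, a difference of 3.02 percentage points (exact permutation p = 0.1). The control libraries agreed within 0.112 percentage points (SD), control library 1 included. Hk2 took 13.8, 11.4 and 10.5% in the drug group and 12.7, 14.1 and 13.6% in the controls, with overlap (exact permutation p = 0.3). Ldha made up 92.4, 91.8 and 91.1% of the sum of Ldha and Ldhb with CTLA4-Ig, against 93.1, 92.9 and 92.4% with control IgG, a difference of -1.05 percentage points (exact permutation p = 0.1). Ldhb, the subunit that favours pyruvate, stood at 26.01, 31.1 and 31.3 FPKM with CTLA4-Ig and at 25.4, 24.2 and 24.6 FPKM with control IgG, a log2 fold change of 0.24 ± 0.08 (SE; limma adjusted p = 0.7316).

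The other 3 families kept overlapping shares. Pfkl held 38.8 ± 1.26% of the phosphofructokinase sum in the drug group and 40.9 ± 4.55% in the controls (SD, n = 3, exact permutation p = 0.7). Pfkp, the platelet-type enzyme, was the more abundant in every library, at a mean of 25.9 FPKM against 19.6 FPKM for Pfkl. Pfkfb3 held 31.3 ± 1.19% of its family in the drug group and 32.0 ± 0.961% in the controls (SD, n = 3; exact permutation p = 0.5). Pfkfb4, its relative, was the more abundant at 41.6, 46.7 and 41.3 FPKM with CTLA4-Ig against 36.9, 35.02 and 36.4 FPKM with control IgG, a log2 fold change of 0.25 ± 0.07 (SE; limma adjusted p = 0.7196). Both genes were thus higher in all 3 drug libraries than in all controls while the share of Pfkfb3 overlapped. Aldoa held 99.5 ± 0.185% of the aldolase sum in the drug group and 99.6 ± 0.127% in the controls (SD, n = 3; exact permutation p = 0.6). The neutrophil marker sum given above also separated the groups, though 8 of its 18 genes overlapped, and its part in the shares was not tested.

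**Figure D4:**
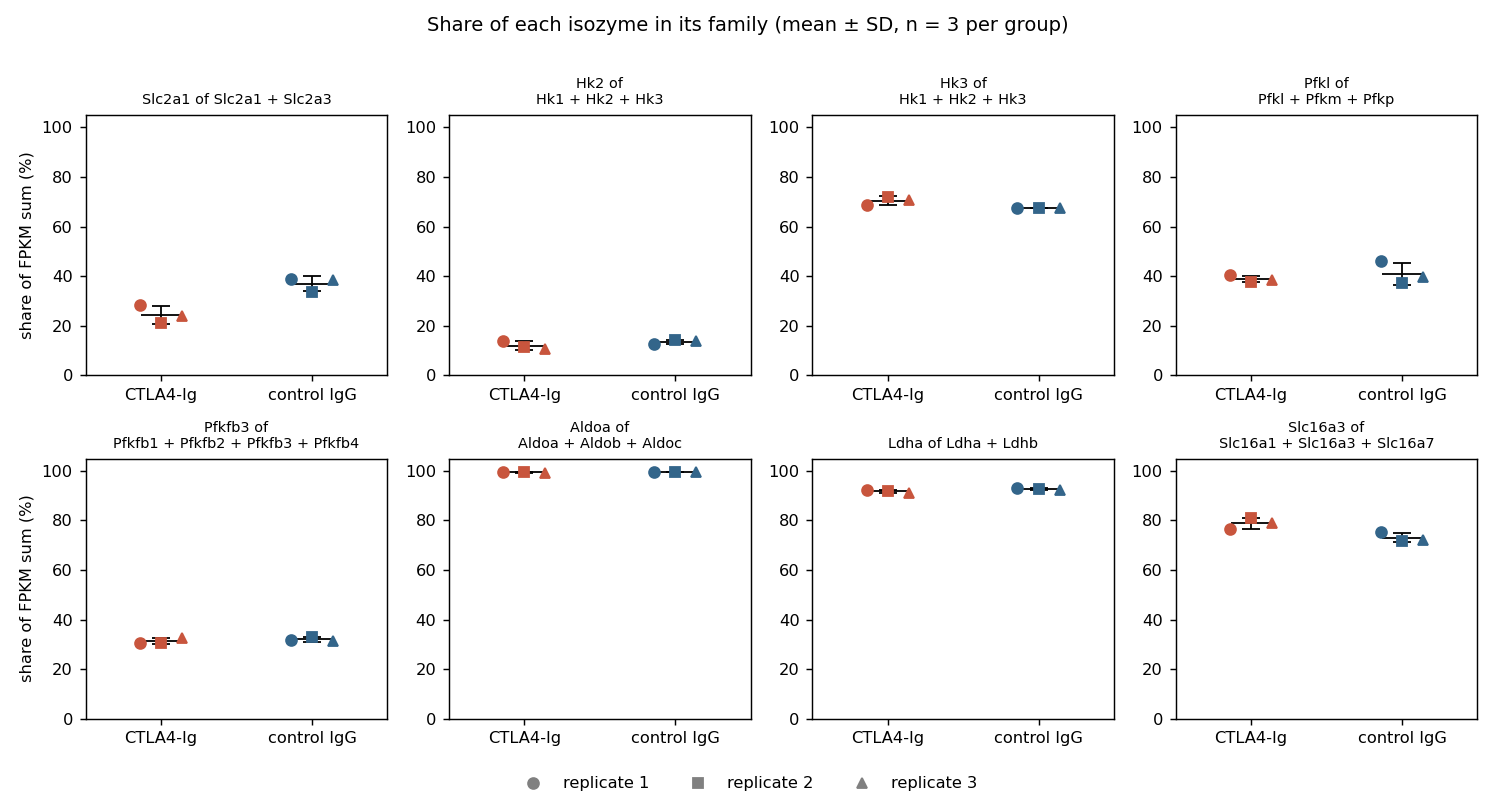
Share of each gene in the FPKM sum of its isozymes (vertical axis, percent) in every library, CTLA4-Ig (red) and control IgG (blue), with mean ± SD (n = 3 per group). The shares of Slc2a1, Hk3, Ldha and Slc16a3 do not overlap between the groups. The widest gap is for Slc2a1 in its sum with Slc2a3 alone (24.3% with CTLA4-Ig and 36.9% with control IgG).

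Of the wider route, 94 genes in 8 lists were matched and 77 reached the minimum mean of 1 FPKM; of these, 0 were called by limma. At an unadjusted p under 0.05 there were 6 higher and 2 lower, where 4.09% of all genes were higher and 1.98% lower. Of the other glycolytic enzymes 8 of 12 tested had a positive log2 fold change, with 0 at an unadjusted p under 0.05 and a median of 0.05. Gapdh, the enzyme between aldolase and Pgk1, had 0.02 ± 0.10, Eno1, the enolase above Pkm, -0.02 ± 0.14, and Hk1, the hexokinase of most tissues, 0.11 ± 0.06 (SE). Pfkp had -0.06 and Pgam2, a phosphoglycerate mutase, 0.08. Of 4 tested sugar transporters 2 were positive, Slc2a3 and Slc2a9, a urate and sugar transporter at 0.20, while Slc2a6 had -0.14. Of 6 regulators of fructose-2,6-bisphosphate and sugar phosphates 4 were positive, with 0.14 for the glucose-6-phosphatase gene G6pc3. Tigar, which breaks fructose-2,6-bisphosphate down, had -0.13 and did not overlap between the groups.

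The branches beside glycolysis had medians just above 0. All 8 pentose phosphate genes, which make NADPH and ribose from glucose 6-phosphate, had a positive log2 fold change, from 0.01 to 0.17, with 0 at an unadjusted p under 0.05. Tkt, the transketolase, averaged 399 ± 21.9 FPKM in the drug group and 356 ± 27.8 FPKM in the controls (SD, n = 3), and its log2 fold change was 0.17 ± 0.08 (SE). Taldo1, the transaldolase, had 0.10 and Rpia, the ribose phosphate isomerase, 0.08, and the groups did not overlap for either. Of 9 glycogen genes 6 were positive, with a median of 0.11 and 2 at an unadjusted p under 0.05. Gys1, the glycogen synthase, was among them at 0.27 ± 0.10, and Gbe1, the branching enzyme, had 0.21 ± 0.10 (SE), and 0.12 without CTLA4-Ig library 2. Gys1 overlaps Ruvbl2, at a mean of 46.3 FPKM.

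Pyruvate handling, the regulators and the other HIF-1 targets had medians just below 0. Of 15 genes of lactate and pyruvate handling 5 were positive, with a median of -0.05, 1 at an unadjusted p under 0.05 in each direction (Ldhb and Slc16a1) and -0.13 for Dlat, a subunit of pyruvate dehydrogenase. Of 11 transcription and oxygen regulators 5 were positive. Myc, which drives glycolytic genes in dividing cells, stood at 23.2, 26.4 and 22.7 FPKM with CTLA4-Ig and at 29.5, 29.0 and 27.2 FPKM with control IgG, a log2 fold change of -0.24 ± 0.08 (SE; limma adjusted p = 0.7196). Hif1a, the oxygen-regulated subunit of HIF-1, had -0.12 ± 0.08, and Vhl, which marks it for breakdown, 0.16 ± 0.10 (SE). Hif1a had -0.07 without CTLA4-Ig library 3, and Vhl had 0.06 without control library 1. Of 12 HIF-1 targets outside glycolysis 4 were positive, with a median of -0.02. Vegfa, the vascular growth factor, had 0.26 ± 0.11, Mxi1, an antagonist of MYC, 0.26 ± 0.07, and Ankrd37 -0.49 ± 0.22 (SE), and Ankrd37 overlaps Ufsp2 at a mean of 29.7 FPKM. Vegfa had 0.14 without CTLA4-Ig library 2, and Ankrd37 had -0.29 without control library 3. Ddit4, a stress-induced inhibitor of mTORC1 named after its values were seen, stood at 11.3, 5.33 and 15.0 FPKM with CTLA4-Ig and at 48.9, 13.2 and 12.01 FPKM with control IgG. Its high library is again control library 1.

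**Figure D5:**
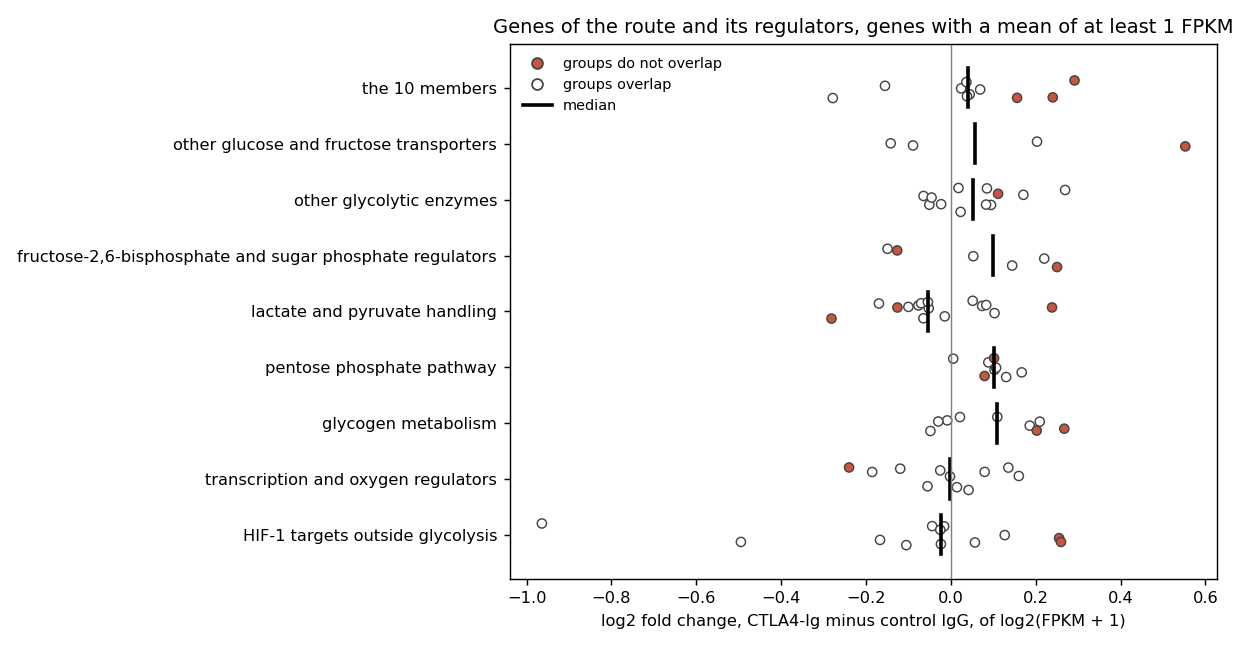
Log2 fold change of every tested gene (points), CTLA4-Ig minus control IgG, for the 10 members and the 8 lists of the wider route; filled points are genes whose groups do not overlap and black bars are list medians. The list medians lie between -0.05 and 0.11, with the 8 pentose phosphate genes all above 0.

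Over the 6 libraries the mean standardised level of the 10 members was 0.215, 0.509 and 0.038 in CTLA4-Ig libraries 1, 2 and 3 and 0.551, -0.676 and -0.637 in the control libraries. Of 6501 other genes at a mean of 10 FPKM or more, those most like this profile included Aldh3b1, an aldehyde dehydrogenase gene (Pearson's r = 0.99), Tnfsf14, which encodes the cytokine LIGHT (0.99), Midn (0.98) and the signalling adaptor gene Shc1 (0.97). Aldh3b1 stood at 102, 109 and 98.6 FPKM with CTLA4-Ig and at 106, 83.2 and 84.0 FPKM with control IgG. In all, 97 of these genes had an r of at least 0.9, and the points share depth and the authors' scaling, so the values describe these 6 libraries alone.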

How the data were processed

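RNA-seq libraries of sorted EGFP-positive cells, 3 per treatment, were grouped by the treatment label. The deposited values are FPKM, 1 per gene name and library, scaled by the authors. The tools, per the submitters' processing notes, were Cuffnorm 2.2.1, SAMtools 0.1.19, TopHat2 2.0.13 and Bowtie2 2.2.3, with mm10; the sources used here do not give settings, annotation or use of strand. Per the labels' protocols, a stranded TruSeq mRNA kit was used. FPKM holds no counts, so no count test was run.

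Log2(FPKM + 1) was tested with limma 3.58.1 in R 4.3.3 (lmFit, eBayes with a trend, 1 factor for the group) in the 10865 genes that averaged 1 FPKM or more, with Benjamini-Hochberg adjustment over all of them at 0.05. The fit was run on simulated independent normal values with larger shifts than any member had. Its power at the members' fold changes was not examined. Isozyme shares were compared with two-sided exact permutation tests. Depth came from the spacing of low values in genes with 1 GENCODE M21 transcript, of which 200 bases were taken as unsequenced ends, and it is approximate. Fragments behind a gene use the median length of its coding transcripts. Coordinates and promoter windows are RefSeq's, GRCm38.p6, and all 10 members and 94 list genes were matched, 4 of these by an older symbol. Python 3.11.15, pandas 2.3.3, numpy 2.4.6 and matplotlib 3.10.9 were used.

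Named were the members, the 3 genes with the smallest p of each list, and the 5 genes most like the members' mean profile; Gapdh, Eno1, Gpi1, Bsg, Ddit4 and the cell type markers were added with their values known. Some genes that this rule names are not reported here. The members and lists were chosen with earlier results of these data known. Other settings tried were median-of-ratios and quantile scaling, pseudocounts of 0.1 and 0.5, a minimum mean of 5 FPKM or none, no trend, the replicate number as a block, and each library left out in turn.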

Additional observations from a re-analysis of the deposited data

How the results depend on the processing

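Under both other pseudocounts, both other filters, both other scalings, no trend and the replicate block, 0 members were called. All 10 members kept their sign, and 3 did not overlap between the groups. The filters, the trend and the block could not change a sign or an overlap, and a pseudocount could not change an overlap. Of these settings, only the scalings could have changed both. Leaving out 1 library at a time gave 0 to 6 genes called by limma over all genes. It gave 347 to 868 genes at an unadjusted p under 0.05 (347 without CTLA4-Ig library 2). It left 3 to 7 members without overlap, and the 3 without overlap in all 6 libraries could not come to overlap this way. The share of all genes without overlap, in either direction, was 26.2% without control library 1 (7 members). It was 23.1% without CTLA4-Ig library 1 (5 members), and it was not computed for the other libraries left out. With 1 library left out, the log2 fold change ran from -0.0564 to 0.15 for Hk2 and from -0.256 to 0.00893 for Pfkl. It ran from -0.0128 to 0.0859 for Pgk1, from -0.029 to 0.129 for Pkm and from -0.00706 to 0.0897 for Ldha. It ran from -0.237 to 0.0323 for Slc2a6, from -0.0187 to 0.141 for Pgam2, from 0.088 to 0.365 for Slc2a9, from -0.108 to -0.0212 for Pfkp and from -0.176 to -0.0786 for Dlat. The share difference ran from -3.89 to 0.488 percentage points for Pfkl and from -0.144 to 0.037 for Aldoa. The cause of these turns was not tested. Expression showed no pairing by replicate number: deviations from the group means correlated at -0.154, -0.094 and -0.023 between libraries of the same number (across genes). Between libraries of other numbers the correlations ran from -0.039 to 0.132. Such values cannot tell whether the numbers stand for shared days or batches. With the replicate block 0 genes were called and 619 had an unadjusted p under 0.05, against 659 without the block. With 3 libraries per group, a p that misses the threshold does not show that values did not differ.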

Other observations

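Pklr, the pyruvate kinase of liver and red cells, was under the minimum mean of 1 FPKM and so was not tested. It stood at 1.23, 1.08 and 1.28 FPKM with CTLA4-Ig and at 0.0428, 0.709 and 1.52 FPKM with control IgG. The lowest value was in control library 1, where erythroid markers also had their lowest sum. Control library 2 had the highest erythroid sum, 147 FPKM, with Pklr at 0.709 FPKM. A link between Pklr and the erythroid markers was not tested. Pklr was singled out after its values were seen.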
